A study of Mus musculus with 4 samples.

Results

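Sphingosine-1-phosphate (S1P) and lysophosphatidic acid (LPA) are signalling lipids, and 8 genes that make, degrade or sense them were examined: Plpp3, Plpp1, Sphk1, Sphk2, Sgpl1, S1pr1, S1pr2 and Lpar6. Each matched a single symbol among the 31053 features of the deposited matrices, so all 8 of 8 were measured. The set was built around Plpp3, and its members were chosen by measured values: Plpp3 was selected because its difference between efferocytic and non-efferocytic macrophages was among the largest in these same libraries. The efferocytic against non-efferocytic values of the 8 genes are therefore given below as a description, without a test.

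Bone marrow macrophages were grown with M-CSF from male C57BL/6J mice a few weeks old and were co-cultured for 16 to 18 h with apoptotic RM1 cells, a mouse prostate cancer line driven by Ras and Myc. The RM1 cells had been killed with UV light and labelled with the dye CFSE. Cell sorting then took F4/80+ cells carrying the dye as the efferocytic group and F4/80+ cells lacking it as the non-efferocytic group. The sources describe the non-efferocytic cells once as cells of such a co-culture that had not engulfed and once as macrophages on their own, so whether they had met dying cancer cells is not settled here. Each of 2 experiments gave 1 library per group, and each library was read by droplet single-cell RNA sequencing of transcript 3′ ends.

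S1P is made inside the cell by the sphingosine kinases, and it leaves the pathway when the lyase encoded by Sgpl1 cleaves it or when phosphatases take off its phosphate. Lipid phosphate phosphatases of the Plpp family work on the outer face of the plasma membrane, where they remove phosphate from S1P, LPA and phosphatidic acid. Macrophages sense S1P and LPA through G protein-coupled receptors, and S1P released by dying cells is known as a cue that draws phagocytes.

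The non-efferocytic libraries held 8280 and 13411 cells in Experiments 1 and 2, and the efferocytic libraries held 6695 and 8408. Cells summed to 101216659 to 155224183 unique molecular identifiers (UMIs, each standing for 1 captured transcript) per library. Median UMIs per cell were 11146 and 9600 in the non-efferocytic libraries and 17171 and 17475.5 in the efferocytic ones. Because the efferocytic cells carried more UMIs, levels are given as UMIs per 1000000 UMIs of the library (CPM). Some shares of cells with a UMI are given after thinning each cell to 5000 UMIs. Shallower cells were left out of those shares, 1099 and 3404 in the non-efferocytic and 544 and 505 in the efferocytic libraries, so they cover fewer cells than the unthinned ones. All 9 macrophage markers were present in every library, with a summed level of 23599 to 39185 CPM. Cells in macrophage-like clusters made up 77.2% to 94.6% of a library. The 2 libraries of Experiment 2 shared 118 cell barcodes, against 16.6 expected by chance, and the other pairs shared 14 to 23. With these barcodes removed, the Plpp3 log2 fold change was 2.06, as with them.

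Plpp3 (chr4:105157347-105232764, plus strand, GENCODE vM21 on GRCm38) overlapped no other annotated gene. Plpp1 lies at chr13:112800792-112867894, Sphk1 at chr11:116530925-116536674 and Sphk2 at chr7:45709467-45718002. Plpp1, Sphk1 and Sphk2 each overlap a gene on the opposite strand. Sgpl1, which overlaps Gm44308 on its own strand, lies at chr10:61098642-61147703, S1pr1 at chr3:115710433-115715072 and S1pr2 at chr9:20962361-20976781. Lpar6 (chr14:73237895-73243294, plus strand) sits inside the span of Rb1, which runs on the opposite strand.

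Promoter windows of 300 bases, from 250 before to 50 after a RefSeq start (GRCm38.p6), were listed for 6 of the 8 genes. The windows of Plpp3, Sgpl1 and Lpar6 are shown because these genes gave the largest increase, the highest level and the largest decrease of the set, and because their windows span the range of CG pairs in the set. CG pairs are in capitals, and each sequence runs 5′ to 3′ on the strand of its gene. The windows are chr4:105157097-105157396 (plus), chr10:61147635-61147934 (minus) and chr14:73237641-73237940 (plus).
Plpp3: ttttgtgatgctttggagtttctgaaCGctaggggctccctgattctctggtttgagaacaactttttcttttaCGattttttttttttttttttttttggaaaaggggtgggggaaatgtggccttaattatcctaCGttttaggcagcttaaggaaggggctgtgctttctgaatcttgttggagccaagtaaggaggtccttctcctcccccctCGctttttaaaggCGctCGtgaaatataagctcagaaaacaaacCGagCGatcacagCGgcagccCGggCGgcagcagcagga
Sgpl1: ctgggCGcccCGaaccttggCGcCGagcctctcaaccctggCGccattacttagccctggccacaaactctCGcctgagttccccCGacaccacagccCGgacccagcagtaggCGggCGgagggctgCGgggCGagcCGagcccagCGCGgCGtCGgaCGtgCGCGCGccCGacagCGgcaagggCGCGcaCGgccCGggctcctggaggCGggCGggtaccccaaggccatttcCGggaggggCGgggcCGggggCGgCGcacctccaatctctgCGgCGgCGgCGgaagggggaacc
Lpar6: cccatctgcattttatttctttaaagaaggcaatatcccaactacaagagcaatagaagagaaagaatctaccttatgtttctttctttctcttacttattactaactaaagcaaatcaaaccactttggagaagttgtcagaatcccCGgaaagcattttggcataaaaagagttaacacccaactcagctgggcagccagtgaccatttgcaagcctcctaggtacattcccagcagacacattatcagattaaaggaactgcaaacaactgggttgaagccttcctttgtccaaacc
The Plpp3 window held 11 CG pairs, and 41.4% of the 32851 windows in the table held at least as many. Sgpl1, which was detected in most cells, had 38 CG pairs, a count reached by 4.95% of windows. Lpar6 had 1 pair, a count reached by 94.6% of windows. The core of the hypoxia response element (ACGTG or GCGTG, either strand, the letters of each allowed to overlap the other) was absent from the Plpp3 and Lpar6 windows. It occurred in 43.8% of all windows, among them those of Sgpl1 and S1pr2, all 5 windows of Sphk1 and 1 of 2 windows of Sphk2. The amino acid response core TGATGNAA, on either strand, was in none of the 11 windows of the set and in 3.97% of all windows.

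Plpp3, a membrane phosphatase that breaks down extracellular S1P and LPA, was the gene with the largest difference of the set. Its level was 5.78 and 9.85 CPM in the non-efferocytic libraries of Experiments 1 and 2, and 21.4 and 39.7 CPM in the efferocytic ones. The groups did not overlap, and the lower efferocytic library stood above the higher non-efferocytic one. How many of all genes separate in this way was not computed, for Plpp3 or for the genes below. The group means were 7.82 ± 2.88 CPM and 30.5 ± 12.98 CPM (SD, n = 2 libraries each). Within an experiment the ratio was 3.69 in Experiment 1 and 4.03 in Experiment 2, so the experiments differed in level more than in ratio. The fitted log2 fold change was 2.06, and it ran from 1.60 to 2.50 when 1 library was left out.

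The higher Plpp3 level came with more positive cells. After thinning, 2.20% and 3.797% of non-efferocytic cells had a Plpp3 UMI, against 8.13% and 14.5% of efferocytic cells. The unthinned shares were 4.83%, 6.96%, 21.5% and 33.0% in the same order. In neutrophil-like cells of the same libraries, taken here as a type that should lack Plpp3, the unthinned share was 1.68% to 4.55% and rested on 1 to 3 cells per library. Those cells had median depths of 15878 to 20669 UMIs. Macrophage markers were detected in them too, 9 of 9 in Experiment 1 and 8 of 9 in Experiment 2. They are thus no clean background, and whether their Plpp3 UMIs came from macrophages was not tested. In Experiment 1 the non-efferocytic share of 4.83% lay within the interval of the neutrophil-like share of that library (0.833% to 11.2%, from 3 of 75 cells). A macrophage-like cluster of that library led by Cdkn1c, at 30.2% (21.3% to 40.4%), lay above that interval. In Experiment 2 the non-efferocytic share of 6.96% (6.53% to 7.40%) lay above that interval (0.204% to 5.94%). Both efferocytic shares lay above the intervals of their own libraries, which reached 21.1% and 22.8%, by little in Experiment 1. A Plpp3-positive cell carried on average 1.46 UMIs in each non-efferocytic library, and 1.85 and 2.22 UMIs in the efferocytic libraries.

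Plpp1, the close relative that acts on the same lipids, was rare. It stood at 1.95 and 2.11 CPM in the non-efferocytic libraries and at 1.44 and 1.68 CPM in the efferocytic libraries. Fibroblast-like cells held most of these UMIs in the non-efferocytic libraries, with 71.6% and 61.0% of them in 0.362% and 0.753% of cells. In the efferocytic libraries macrophage-like cells held most of them, 60.6% and 69.7%. Fibroblast-like cells expressed Plpp1 at 78.9 to 128 CPM in the 3 libraries with at least 20 of them. These cells came through a sort for F4/80 and differed in depth, with median UMIs of 43881.5 and 2548 in the non-efferocytic libraries and 18303 in the efferocytic library of Experiment 2. All 9 macrophage markers were detected in those of Experiment 1 and 6 of 9 in those of Experiment 2. With the highest doublet scores removed, the Plpp1 log2 fold change over all cells was -0.33. In macrophage-like cells alone, Plpp1 was at 0.573 and 0.816 CPM in the non-efferocytic libraries and at 0.921 and 1.19 CPM in the efferocytic ones. The direction over all cells was thus the reverse of that over macrophage-like cells, where the fitted log2 fold change was 0.68. The macrophage-like cells of the groups lay largely in different clusters. In Experiment 1 the cluster led by Fabp4 held 3.27% of non-efferocytic and 67.4% of efferocytic cells and the one led by Gpr34 held 49.3% and 1.64%. In Experiment 2 the cluster led by Cnrip1 held 1.02% and 51.2% and the one led by Hpgd held 42.1% and 0.951%. Inside clusters just 3 Plpp1 ratios could be formed, with log2 values of 0.98, 1.26 and -0.18. Summed fibroblast markers were 147 and 123 CPM in the non-efferocytic libraries and 47.4 and 53.3 CPM in the efferocytic libraries, and their part in the Plpp1 values was not tested beyond that split.

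Among Plpp1, Plpp2 and Plpp3, the closest relatives in the family, Plpp3 took a larger part in the efferocytic libraries. It gave 19.9% of their summed UMIs in non-efferocytic and 46.8% in efferocytic cells of Experiment 1. In Experiment 2 it gave 30.0% and 54.6%. Plpp2 gave 73.5% and 63.5% in the non-efferocytic libraries and 43.1% in the efferocytic library of Experiment 2, and 2849 of the 5698 UMIs in that of Experiment 1, although its own level was not lower there (21.4 and 20.8 CPM against 22.8 and 31.3 CPM). The summed level of the 3 genes was 29.1 and 32.8 CPM in the non-efferocytic libraries and 45.6 and 72.7 CPM in the efferocytic ones. The order Plpp2 over Plpp3 over Plpp1 held in 3 libraries, and in the efferocytic library of Experiment 2 Plpp3 was above Plpp2.

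**Figure D1:**
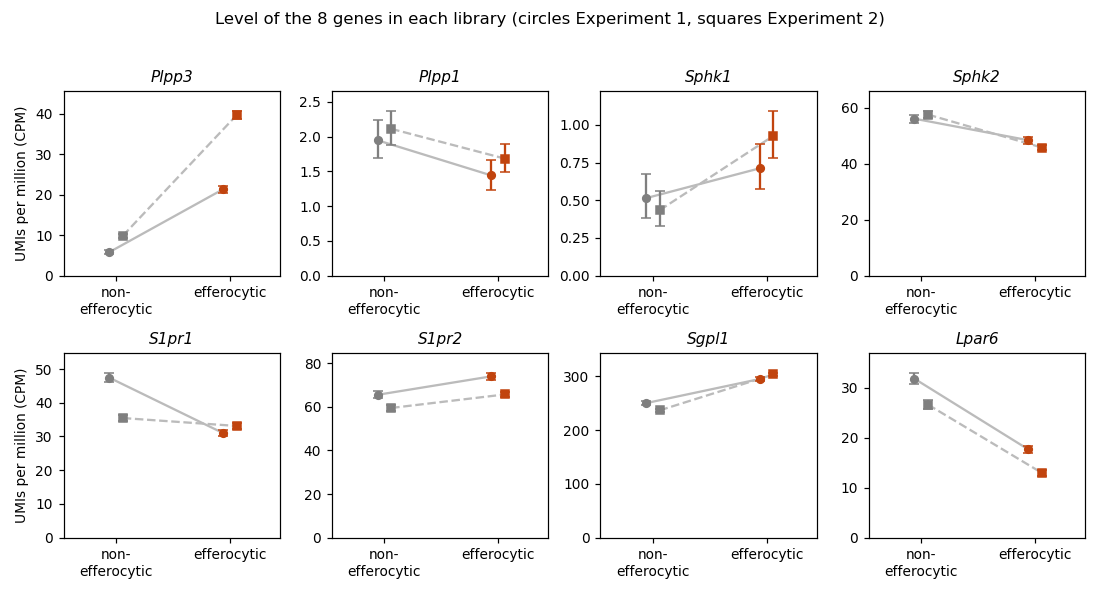
Level of each of the 8 genes in CPM (linear axes from 0), with non-efferocytic libraries in grey and efferocytic libraries in red, circles and solid lines for Experiment 1, and squares and dashed lines for Experiment 2. Error bars are 95% Poisson intervals of the count and cover counting error only. Plpp3 goes from 5.78 and 9.85 CPM to 21.4 and 39.7 CPM, while Lpar6 goes from 31.8 and 26.6 CPM to 17.6 and 12.9 CPM.

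Sphk1 and Sphk2, the kinases that phosphorylate sphingosine, were unequal in level. Sphk2 stood at 56.1 and 57.6 CPM in non-efferocytic and at 48.4 and 45.8 CPM in efferocytic libraries, and gave 98.0% to 99.3% of the kinase UMIs. Its efferocytic libraries were both below the non-efferocytic ones in CPM. Counted per cell, the order turned, with 686 and 594 UMIs per 1000 non-efferocytic cells and 904 and 845 per 1000 efferocytic cells. Sphk1 stood at 0.514 and 0.434 CPM in the non-efferocytic libraries and at 0.712 and 0.928 CPM in the efferocytic ones, from 52 to 144 UMIs per library. The 95% Poisson intervals of the Sphk1 level overlapped in Experiment 1 (0.384 to 0.674 and 0.572 to 0.876 CPM) and not in Experiment 2 (0.331 to 0.558 and 0.782 to 1.09 CPM). Sphk1 and Plpp3 also belong to gene lists that the study drew up from these libraries, so their direction is not independent evidence.

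Sgpl1, the lyase that degrades S1P irreversibly, was the most abundant gene of the set. Its level was 250 and 237 CPM in the non-efferocytic libraries and 295 and 303 CPM in the efferocytic libraries. Both efferocytic libraries were above both non-efferocytic ones, with group means of 243 ± 9.50 and 299 ± 5.95 CPM (SD, n = 2 libraries each). After thinning, 68.3% to 71.1% of non-efferocytic and 76.9% to 77.1% of efferocytic cells had a UMI.

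The most abundant S1P receptors were S1pr2 and S1pr1. S1pr2 was at 65.5 and 59.4 CPM in the non-efferocytic and at 73.9 and 65.6 CPM in the efferocytic libraries, higher in the efferocytic library of each experiment. The groups met, since the efferocytic library of Experiment 2 and the non-efferocytic library of Experiment 1 were nearly level. S1pr1, the receptor through which lymphocytes leave tissues along S1P gradients, was at 47.5 and 35.5 CPM in the non-efferocytic and at 31.01 and 33.1 CPM in the efferocytic libraries. Its ratio was 0.653 in Experiment 1 and 0.934 in Experiment 2, and without the non-efferocytic library of Experiment 1 the fitted log2 fold change went from -0.25 to -0.03. Per 1000 cells S1pr1 gave 580 and 366 UMIs in the non-efferocytic libraries and 579 and 611 in the efferocytic ones. In that scaling Experiment 1 was level, and the direction turned in Experiment 2 alone.

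S1pr2 was the leading S1P receptor in all 4 libraries, with 57.3% and 61.6% of receptor UMIs in the non-efferocytic libraries and 70.0% and 66.1% in the efferocytic ones. S1pr1 gave 41.5% and 36.7% in the non-efferocytic libraries and 29.4% and 33.4% in the efferocytic libraries. S1pr3 and S1pr4 were under 1 CPM in every library, from 34 to 124 UMIs each. S1pr5 had 0 or 1 UMI per library. A count of 0 allows up to 0.0296 CPM in the shallowest library.

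Lpar6, an LPA receptor, was lower in the efferocytic library of both experiments. It was at 31.8 and 26.6 CPM in the non-efferocytic libraries and at 17.6 and 12.9 CPM in the efferocytic ones, and the groups did not overlap. The fitted log2 fold change was -0.84 (-1.10 to -0.58 with 1 library left out), and its sign held in CPM and per cell (-0.22 per cell). Per 1000 cells Lpar6 gave 389 and 274 UMIs in the non-efferocytic and 329.5 and 239 in the efferocytic libraries. In that scaling the groups overlapped. After thinning, 14.998% and 12.9% of non-efferocytic and 9.04% and 6.67% of efferocytic cells had a UMI. Lpar6 made up 90.3% to 93.4% of the UMIs of the 6 LPA receptors in every library, so its lower level came with almost no other LPA receptor present.

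**Figure D2:**
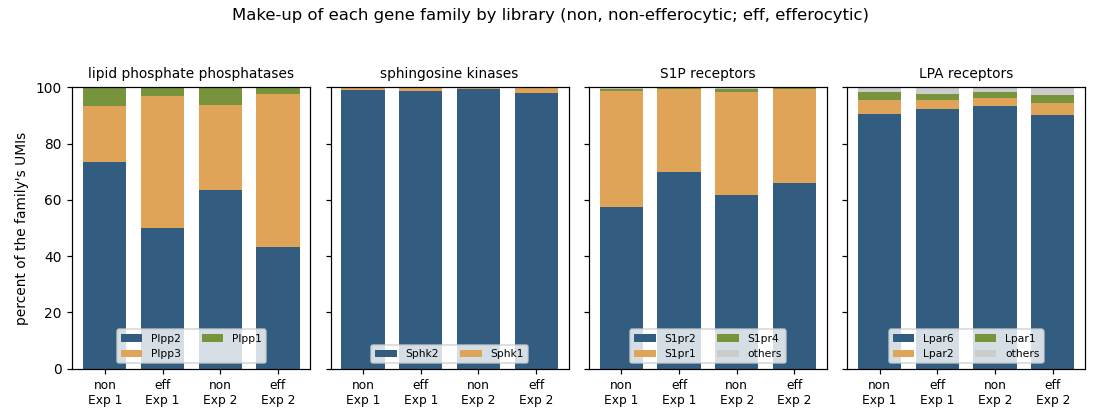
Share of each family's UMIs by library (bars stacked to 100%), for the 3 phosphatases Plpp1 to Plpp3, the sphingosine kinases, the S1P receptors and the LPA receptors, with rarer receptors summed as others. Plpp3 grows from 19.9% and 30.0% of its family in non-efferocytic cells to 46.8% and 54.6% in efferocytic cells, while Sphk2 and Lpar6 hold at least 90.3% of theirs throughout.

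The cells of each experiment were clustered on genes other than the 8 and the pathway lists. Clusters were called X-like from fixed marker genes, and macrophage-like ones also had to reach a set depth. Clusters left unnamed for few UMIs had 6 or 7 of 9 macrophage markers detected. Plpp3 was uneven across macrophage-like clusters. Its highest level among them was in a cluster led by Cdkn1c and Pdpn in each experiment. There it stood at 46.1 CPM in the 96 non-efferocytic cells and at 100 CPM in the 216 efferocytic cells of Experiment 1. In Experiment 2 it was at 31.8 CPM in 478 non-efferocytic cells and at 66.4 CPM in 2457 efferocytic cells. Cdkn1c encodes a cell cycle inhibitor and Pdpn a membrane glycoprotein, podoplanin. This cluster held 13.2% and 19.4% of all Plpp3 UMIs in the non-efferocytic libraries and 17.3% and 56.7% in the efferocytic ones. In the non-efferocytic libraries a larger part, 43.9% and 50.1%, lay in a cluster led by Slamf8, with levels of 8.65 and 17.6 CPM. In the efferocytic library of Experiment 1 most of them, 58.3%, lay in the largest cluster, led by Fabp4, Calr and Pf4, where the level was 17.6 CPM.

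Low levels were found in the clusters whose leading genes included Gpr34 and Hpgd. Plpp3 was at 1.99 CPM in the 4078 non-efferocytic cells and at 0.765 CPM, from 1 UMI, in the 110 efferocytic cells of that cluster in Experiment 1. In Experiment 2 it was at 2.63 and 5.87 CPM in the matching cluster. Neutrophil-like cells stood at 1.46 to 2.27 CPM, from 1 to 3 UMIs per library, and the 5.87 CPM of the efferocytic cells (7 UMIs) lay within the interval of the neutrophil-like cells of that library (0.0539 to 11.9 CPM). Interferon-response clusters, led by Cxcl10 and Ifit genes, were low as well, at 1.98 and 2.76 CPM in Experiment 1 and at 3.94 CPM in the non-efferocytic cells of Experiment 2.

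Plpp3 was also higher in efferocytic than in non-efferocytic cells inside clusters. In 14 of the 14 clusters with at least 50 cells and more than 3 Plpp3 UMIs in each library of the experiment, the efferocytic cells had the higher level. Plpp3 was chosen for this difference and the clusters share the same libraries, so the count is neither independent nor support. The share of all genes higher in as many clusters was not computed. The log2 ratios ran from 0.48 to 2.86 with a median of 1.14, against 1.89 and 2.01 for whole libraries. The highest, 2.83 and 2.86, were of unnamed clusters of few UMIs in Experiment 2. They rested on 10 and 12 and on 18 and 12 Plpp3 UMIs. The values inside clusters were thus mostly smaller than those of the libraries. The 3 other clusters of that size, with too few Plpp3 UMIs for a ratio, were the Gpr34-led cluster of Experiment 1, a cluster of cells with few UMIs and the lymphocyte-like cells. In that Gpr34-led cluster the efferocytic level was the lower one, at 0.765 CPM from 1 UMI against 1.99 CPM from 88 UMIs. In that cluster of few UMIs it was the higher one.

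**Figure D3:**
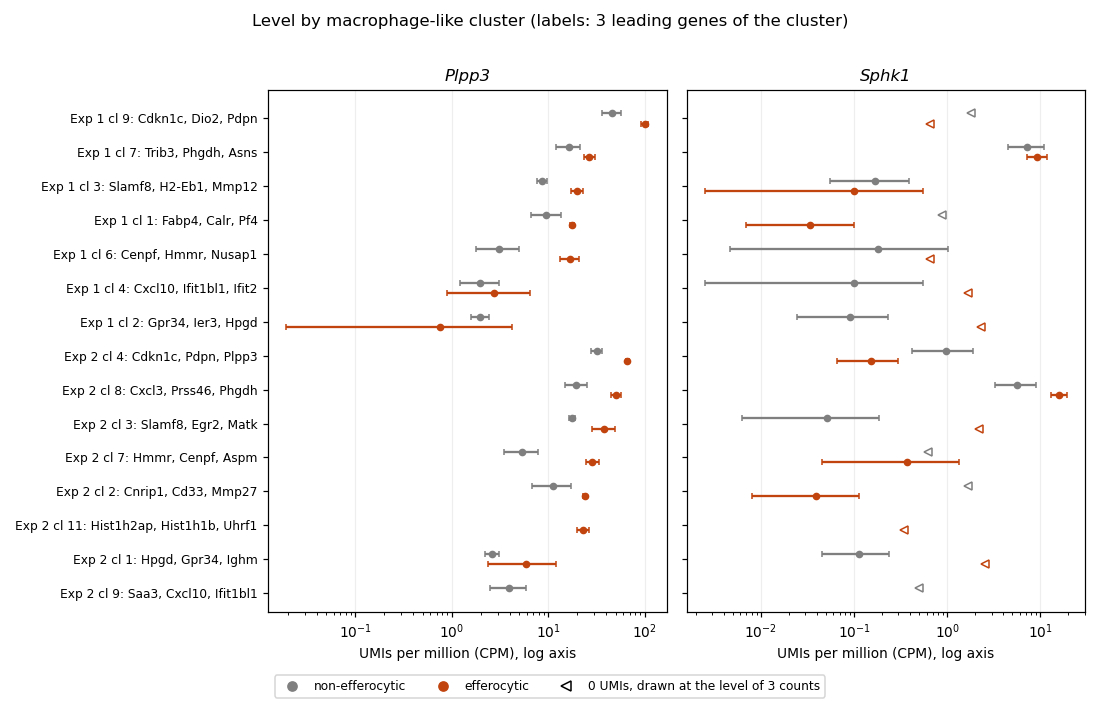
Level of Plpp3 (left) and Sphk1 (right) in each macrophage-like cluster with at least 50 cells in a library, in CPM on log axes, with non-efferocytic cells in grey and efferocytic cells in red and 95% Poisson intervals. Open triangles mark 0 UMIs and are drawn at the level that 3 counts would give. Plpp3 peaks at 100 CPM in the Cdkn1c-led cluster of Experiment 1, and Sphk1 stands at 5.54 to 15.9 CPM in the Phgdh and Trib3 clusters and under 1 CPM in every other one with a UMI.

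Sphk1 was concentrated in a single macrophage-like cluster of each experiment. This cluster was led by Trib3, Phgdh and Asns, genes of the amino acid stress response and of serine and asparagine synthesis, in Experiment 1, and shared Phgdh, Trib3 and Asns among its leading genes in Experiment 2. Sphk1 was at 7.21 CPM in its 172 non-efferocytic and at 9.30 CPM in its 355 efferocytic cells in Experiment 1. In Experiment 2 it was at 5.54 CPM in 203 non-efferocytic and at 15.9 CPM in 339 efferocytic cells. The cluster was 5.30% and 4.03% of efferocytic cells and held 78.7% and 70.1% of their Sphk1 UMIs. In the non-efferocytic libraries it held 42.3% and 28.3% of Sphk1 UMIs, and fibroblast-like cells held 17 of 52 and 21 of 60. In the Cdkn1c-led clusters Sphk1 had 0 UMIs in both libraries of Experiment 1 and stood at 0.960 CPM (8 UMIs) and 0.152 CPM in Experiment 2, where the whole libraries stood at 0.434 and 0.928 CPM. Among macrophage-like clusters the highest levels of Plpp3 and of Sphk1 lay in different ones. Plpp3 itself was second highest among macrophage-like clusters in the Sphk1 cluster, at 16.4 and 26.8 CPM in Experiment 1 and at 19.6 and 50.7 CPM in Experiment 2.

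Fibroblast-like cells carried both genes. In the 3 libraries with at least 20 of them, Plpp3 was at 28.7 and 46.7 CPM in the non-efferocytic cells of Experiments 1 and 2 and at 67.8 CPM in the efferocytic cells of Experiment 2. Sphk1 was at 12.9, 15.1 and 29.3 CPM in the same order. Being few, these cells held 6.50%, 4.77% and 1.09% of the Plpp3 UMIs of their libraries. Krt18, an epithelial keratin, was among the leading genes of the fibroblast-like cluster of Experiment 2, and whether that cluster held RM1 cells was not tested.

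Lpar6 and the S1P receptors had patterns of their own. Lpar6 was low in the macrophage-like clusters where Plpp3 or Sphk1 was highest, at 8.37 and 8.25 CPM in the Cdkn1c-led cluster of Experiment 1 and at 10.4 and 5.51 CPM in the Sphk1 cluster of Experiment 2. Other clusters had both, such as that led by Arg1 in the efferocytic library of Experiment 1 (Plpp3 at 24.9 and Lpar6 at 28.2 CPM) and a cluster of few UMIs in that of Experiment 2 (101 and 84.3 CPM, from 12 and 10 UMIs). Lpar6 was highest among macrophage-like clusters in the Gpr34-led cluster, at 40.0 and 36.7 CPM in Experiment 1 and 31.1 and 21.8 CPM in Experiment 2. S1pr2 reached 113 CPM in a cluster of 382 efferocytic cells of Experiment 1 led by Arg1, Ankrd37 and Egln3, genes that respond to low oxygen, and 80.2 to 104 CPM in the Sphk1 clusters. S1pr1 was highest in lymphocyte-like cells of Experiment 2, at 192 and 145 CPM from 23 and 15 UMIs, where Plpp3 had 0 UMIs.

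Inside clusters, S1pr1 was lower in efferocytic cells in 16 of 17 clusters (median log2 ratio -0.53), Lpar6 in 15 of 16 (median -0.51) and Sphk2 in 15 of 16 (median -0.26). Sgpl1 was higher in 14 of 16 clusters (median 0.19) and S1pr2 in 11 of 16 (median 0.10). The clusters of an experiment share its libraries, so these are not independent counts. They are ratios of CPM without TMM factors, a scaling in which the median of all genes over whole libraries was -0.12. Per cell, S1pr1 and Sphk2 turned to higher over whole libraries (0.37 and 0.45). The share of all genes that were lower in as many clusters was not computed.

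**Figure D4:**
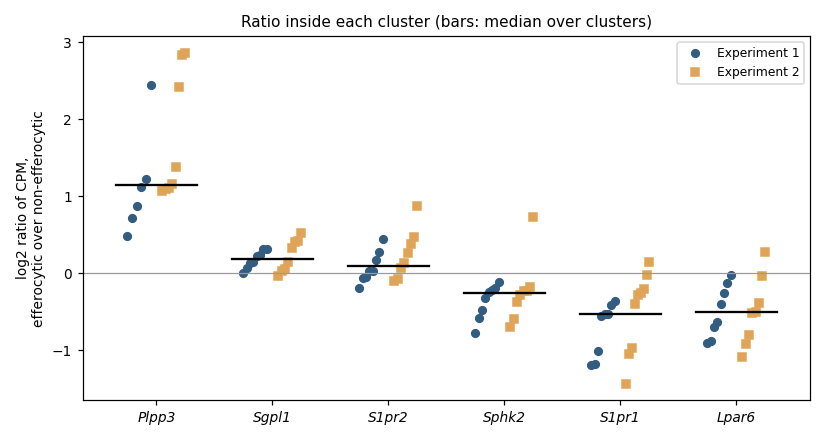
Log2 ratio of CPM, efferocytic over non-efferocytic, inside each cluster with at least 50 cells and more than 3 UMIs in both libraries, with circles for Experiment 1, squares for Experiment 2 and black bars at the median. All 14 Plpp3 ratios lie above 0 (0.48 to 2.86), and 15 of 16 Lpar6 ratios and 16 of 17 S1pr1 ratios lie below it.

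Few cells had UMIs of many of these genes, and the share expected from the detection of each gene alone was not computed. At 5000 UMIs per cell, 9.58% to 13.5% of cells had a UMI of none of the 8 and 2.87% to 3.32% had 4 or more. S1pr2 was found in 29.2% to 39.2% of Plpp3-positive cells and in 25.5% to 31.5% of the other cells, higher among Plpp3-positive cells in all 4 libraries. Lpar6 was found in 5.92% to 10.8% of Plpp3-positive cells and in 6.80% to 15.1% of the others, lower among Plpp3-positive cells in all 4 libraries. Sphk1 and Plpp3 were seen together in at most 5 cells of a library. Sphk1 was found in 0 of 158 Plpp3-positive cells of the non-efferocytic library of Experiment 1, against 0.0997% of the others. In the other 3 libraries it was found in 0.400% to 0.526% of Plpp3-positive and 0.114% to 0.385% of other cells, higher among Plpp3-positive cells in each.

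The 6 genes most like Plpp3 in pattern were Flrt2 (Pearson's r = 0.93), Knop1 (0.92), Naa20 (0.89), Actn4 (0.89), Fam198b (0.88) and Hmga2 (0.88). These correlations of log2(CPM + 1) are over 41 sums of cells by cluster and library, among 7096 genes, with the mean of each library subtracted. The sums share libraries and depth, so the values are a description. They also include neutrophil-like, lymphocyte-like, fibroblast-like and few-UMI clusters beside the macrophage-like ones. The lymphocyte-like sums of Experiment 2 had 0 Plpp3 UMIs, Sgpl1 at 16.7 and 29.1 CPM and S1pr1 at 192 and 145 CPM. How far the correlations rest on such sums was not tested. Among the set itself, S1pr2 (0.62) and Sgpl1 (0.61) came closest to Plpp3, and S1pr1 (-0.25) and Lpar6 (-0.35) ran the other way.

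The rest of the route was read from 5 lists of 89 genes that do not include the 8, of which 69 had enough counts to be tested. In the fit over all 13869 genes with the experiment as a block (edgeR's quasi-likelihood test, Benjamini-Hochberg adjusted p under 0.05), 18 of the 69 rose and 18 fell in efferocytic cells. Over all genes tested, 38.9% passed, 19.9% higher and 19.0% lower. In place of these 36 calls, 20 were made without the block (8 lower) and 3 with 10% of UMIs removed as free RNA. Leaving out 1 library, which needs a fit without the block, gave 25 calls when it was the efferocytic library of Experiment 1 and 8 when it was that of Experiment 2. Without either non-efferocytic library edgeR made 0 calls, with 22 and 29 genes at an unadjusted p under 0.05. The split of 18 higher and 18 lower became 12 and 21 with library totals in place of TMM factors, and 37 and 7 per cell. The median of all genes moved from -0.02 to -0.12 and 0.60 on the log2 scale with these scalings. The values below are TMM-scaled, relative to a median near 0.

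The other lipid phosphate phosphatases moved both ways. Of 10 genes in that list 6 were tested, 2 rose, 1 fell and 3 did not pass (median log2 fold change -0.11, against -0.02 over all genes). Plpp5 was at 8.24 and 8.41 CPM in the non-efferocytic and at 10.8 and 13.1 CPM in the efferocytic libraries (log2 fold change 0.62, adjusted p = 0.00226, edgeR). Plpp2 rose by a log2 fold change of 0.45 (adjusted p = 0.013, edgeR), mostly in Experiment 2. Plppr3, a family member without known phosphatase activity, fell from 0.850 and 0.723 CPM to 0.248 and 0.232 CPM (-1.60, adjusted p = 0.00218, edgeR). Plpp6 (6.20 to 7.98 CPM), Plpp7 (1.28 to 1.63 CPM) and Plppr2 (1.01 to 1.53 CPM) did not pass. Plpp4 and Plppr1 had 0 UMIs in all 4 libraries, and Plppr4 and Plppr5 had at most 1 UMI each.

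Of 9 other genes of the S1P route 5 were tested, 0 rose and 3 fell (median -0.31). Sgpp1, an S1P phosphatase of the endoplasmic reticulum, was at 54.4 and 46.5 CPM in non-efferocytic and at 40.5 and 35.1 CPM in efferocytic libraries (log2 fold change -0.31, adjusted p = 0.0132, edgeR), and its direction turned per cell (0.31). S1pr3 and S1pr4 fell with log2 fold changes of -1.04 and -1.49 from levels under 1 CPM (adjusted p = 0.0169 and 0.00388, edgeR). Aldh3a2, which acts on the aldehyde that the lyase releases, did not pass (group means 27.2 CPM non-efferocytic and 24.5 CPM efferocytic). The transporters Spns2 and Mfsd2b, which export S1P from other cell types, were under 0.1 CPM on average.

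The list of LPA genes and lysophospholipid receptors held the largest decreases. Of 18 genes 12 were tested, 1 rose and 7 fell (median -0.83). Summed markers of macrophages and of other leukocytes were lower in the efferocytic libraries too. Those of macrophages went from 39185 and 33836 CPM to 31267 and 23599 CPM, although Cd68 among them was higher. Summed neutrophil markers went from 3046 and 3339 CPM to 953 and 705.0 CPM and summed monocyte markers from 214 and 232 CPM to 74.98 and 57.1 CPM, with none of the 9 and 5 genes at 0. In macrophage-like clusters alone, 20 of 66 list genes tested over the 5 lists rose and 18 fell, and Lpar6 had a log2 fold change of -0.88. Gpr34, a receptor for lysophosphatidylserine, went from 24.8 and 13.2 CPM to 3.63 and 1.69 CPM (log2 fold change -2.75, adjusted p = 9.53e-06, edgeR), and it was among the leading genes of a cluster with little Plpp3 in each experiment. Gpr65, a proton-sensing receptor of the same wider group, went from 85.5 and 67.5 CPM to 39.8 and 25.4 CPM (-1.15, adjusted p = 0.000198, edgeR). Gpr132 fell with a log2 fold change of -1.25 (adjusted p = 0.00106, edgeR). Lpar1 and Lpar2 fell from levels under 2 CPM (-0.74 and -0.91), Lpar4 and Lpar5 stood at 0.0960 to 0.395 CPM and did not pass, and Lpar3 had at most 3 UMIs in a library. The gene that rose was Agk, a mitochondrial kinase that makes LPA, at 6.90 and 7.34 CPM against 8.46 and 9.46 CPM (0.44, adjusted p = 0.0108, edgeR). Enpp2, the secreted enzyme autotaxin that makes LPA outside cells, was at 0.692 to 1.08 CPM as group means and did not pass.

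Of 29 genes that supply ceramide and sphingosine 25 were tested, 8 rose, 2 fell and 15 did not pass (median 0.14). The 10 called of 25 are close to the share over all genes. The middle gene, Kdsr, stood at 0.14, or 0.03 with library totals. Cers2, a ceramide synthase, and Degs1, which makes ceramide from dihydroceramide, rose by log2 fold changes of 0.64 and 0.54 (adjusted p = 0.00153 and 0.00343, edgeR). Smpd3, a neutral sphingomyelinase, fell from 5.26 and 4.89 CPM to 1.13 and 0.934 CPM (-2.20, adjusted p = 7.15e-05, edgeR). Cers4 also fell (-0.46, adjusted p = 0.0167, edgeR), with its direction turned per cell (0.16).

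Genes that acylate lysophospholipids or make and use phosphatidic acid split both ways, with 7 of 21 tested higher and 5 lower (median 0.24). Agpat5, which acylates LPA to phosphatidic acid, went from 54.7 and 51.7 CPM to 73.2 and 81.8 CPM (log2 fold change 0.65, adjusted p = 0.000883, edgeR). Lpcat3 and Gpat4 rose as well (0.55 and 0.47). Lpcat2, a lysophosphatidylcholine acyltransferase of inflammatory cells that also makes platelet-activating factor, went from 37.3 and 38.1 CPM to 17.3 and 16.5 CPM (-1.05, adjusted p = 0.000134, edgeR). Lpin1 and Lpcat1 fell with log2 fold changes of -0.59 and -0.53, both above 0 per cell (0.03 and 0.09).

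RNA outside cells was read from barcodes of 10 to 100 UMIs, too small to be cells. In Experiment 1 these barcodes held Plpp3 at 64.6 CPM beside non-efferocytic and at 87.2 CPM beside efferocytic cells, above the level in the cells themselves. In Experiment 2 they held 20.1 and 21.2 CPM, so the efferocytic cells there were above them and the non-efferocytic cells below. The same barcodes of Experiment 1 also held Cd79a, a B cell gene, at 236 and 338 CPM, against 0.0494 and 0.0400 CPM in the cells. If RNA of this make-up is what enters cells, the Cd79a values set it at 0.0209% and 0.0118% of cell UMIs. Such shares would bring 0.0135 and 0.0103 CPM of Plpp3. They are point values from a few Cd79a UMIs in cells, without counting error, so they are no upper limits. Neutrophil-like cells of these libraries held more Plpp3, at 2.27 CPM (0.469 to 6.64) and 2.06 CPM (0.0522 to 11.5), from 3 UMIs and 1 UMI. In Experiment 2 the endothelial gene Pecam1 gave shares of 2.06% and 1.09%, or 0.415 and 0.232 CPM of Plpp3. The non-efferocytic library of Experiment 2 also had 36048 barcodes somewhat below the 1000 UMIs of a cell, against 1048 to 2046 in the others. Unnamed clusters of few UMIs made up 17.3% of its cells. Those larger barcodes were not read for free RNA. Each of these shares of cell UMIs rests on 1 gene chosen for its low level in cells. Whether the small barcodes of Experiment 1 hold RNA of another library was not tested, and their Plpp3 levels and the shares drawn from them depend on it. With free RNA of that make-up taken to be 10% of cell UMIs and removed, Plpp3 was at 0 and 8.69 CPM in the non-efferocytic libraries and at 13.95 and 41.6 CPM in the efferocytic ones. RNA of engulfed RM1 cells was not measured. A list of 7 epithelial genes summed to 0.188 and 10.1 CPM in the non-efferocytic libraries and to 0.0960 and 8.57 CPM in the efferocytic ones, but the study's reagent list calls RM1 cells fibroblast-like, so these genes may not mark them.

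**Figure D5:**
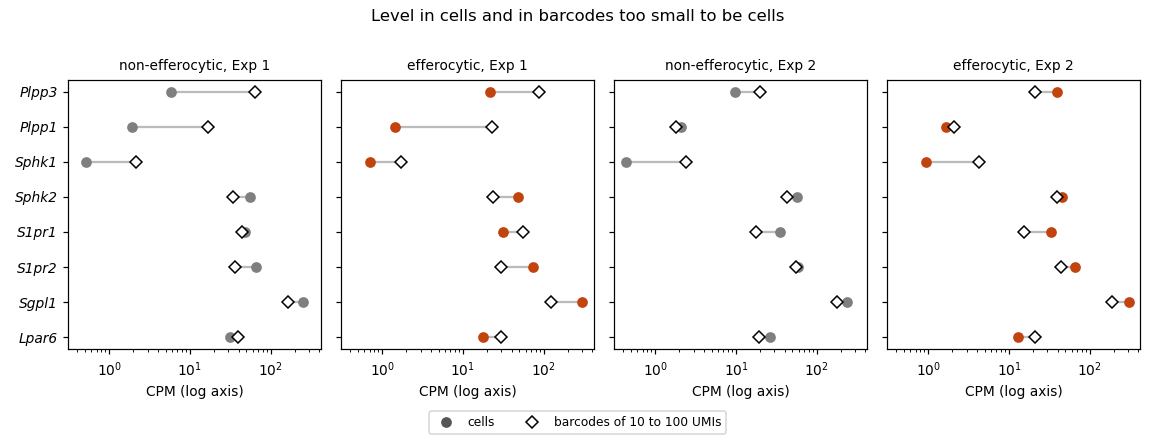
Level of the 8 genes in cells (filled circles) and in barcodes of 10 to 100 UMIs (open diamonds), in CPM on log axes, 1 panel per library. Plpp3 in the small barcodes of Experiment 1 stands at 64.6 and 87.2 CPM, above the 5.78 and 21.4 CPM of the cells.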

How the data were processed

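The deposited matrices are raw UMI counts per gene and barcode. The authors made them with Cell Ranger from 10X 3′ v3.1 libraries on mm10 (the submitters' processing notes give Cell Ranger 3.0.0 and Seurat 3.1), without a filter on barcodes. A barcode counted as a cell from 200 genes and 1000 UMIs upward, unless over 10% of its UMIs were mitochondrial. Levels are UMIs per 1000000 cell UMIs of a library (CPM). Their intervals are exact Poisson, those of shares exact binomial (Clopper-Pearson, 95%), and both cover counting error only. A count of 0 allows up to 3 counts.

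Cells of each experiment were clustered with leidenalg 0.10.2 (resolution 0.5, 20 principal components, 5000 variable genes without the 8 genes and the pathway lists). Cells were named from fixed markers, and macrophage-like clusters also had to reach a set depth. Doublets were kept, and removing the highest doublet scores (0.8% per 1000 cells) was an alternative. Counts were summed per library and tested with edgeR 4.0.16 (R 4.3.3, quasi-likelihood test, TMM factors, filterByExpr, experiment as a block), adjusted over all genes. The test was run on simulated library counts, drawn with the dispersion that the same fit had estimated. It found 195 of 200 planted changes, with 9 false calls. The planted changes were 2-fold or 4-fold, in well-counted genes, with the same dispersion for every gene. Smaller changes, such as many of those called here, were not planted, so their recovery is not known. DESeq2 1.42.0, other scalings, filters, cell rules and left-out libraries were alternatives. Groups and the pairing by experiment come from the labels, and deviations of same-experiment libraries from their group means correlated at 0.672 over 7097 genes. The study states a least number of mice per group for its macrophage experiments as a whole. The number behind each library is not given in the sources used here. With the block, p-values measure how the group difference varied between the 2 experiments, with variance shared across genes. A spread between mice cannot be read from them.

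The 8 genes and all lists were chosen with earlier results of these data known. Named beside the 8 were all S1P and LPA receptors and lipid phosphate phosphatases, up to 3 called genes per direction of each list at 1 CPM or more on average whose sign was shared by both experiments, and the 6 genes most like Plpp3 (mean of at least 10 CPM). A gene of the ceramide list that met this rule is not reported here. Further genes with levels were chosen after their values were seen. They are Aldh3a2, Spns2, Mfsd2b and Enpp2. Gene positions come from GENCODE vM21 and promoter windows from RefSeq (GRCm38.p6).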

Additional observations from a re-analysis of the deposited data

Results flagged for a closer look

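The deposited matrices also hold barcodes of 10 to 100 UMIs, which no comparison of cells used, and in them 2 of the genes, each from at least 20 UMIs there, stood more than 2 times above their level in cells. In Experiment 1 Plpp3 was at 64.6 CPM (237 UMIs) in those barcodes of the non-efferocytic library and at 87.2 CPM (205 UMIs) in those of the efferocytic library. Plpp1 was at 16.9 CPM (62 UMIs) and 23.0 CPM (54 UMIs), against 1.95 and 1.44 CPM in cells. In Experiment 2 Plpp3 was at 20.1 CPM (33 UMIs) in those of the non-efferocytic library, against 9.85 CPM in cells. Sphk1 was also higher there in all 4 libraries, at 1.70 to 4.24 CPM against 0.434 to 0.928 CPM in cells, but from 4 to 8 UMIs per library. The barcodes of Experiment 1 also held Cd79a, a B cell gene, at 236 and 338 CPM, against 0.0494 and 0.0400 CPM in cells. Whether this RNA came from another library was not tested.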

How the results depend on the processing

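The number of list genes called depended on the fit. Without the block that pairs libraries by experiment it was 20 (8 lower) in place of 36, with a mean of at least 10 CPM 21 (9 lower, from fewer genes), and per cell 37 higher and 7 lower. With 10% of UMIs removed as free RNA it was 3 (1 higher and 2 lower), and Plpp3 and Plpp1 then had no fold change because 1 library was left at 0. DESeq2 called 26. Leaving out 1 library gave 0 to 25 calls, 0 to 14 higher and 0 to 11 lower, from fits without the block in which the lone library is assumed to vary like the other group; the cause was not tested.

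Scaling moved the log2 fold changes of the 8 genes, and for Plpp1 the choice of cells moved it more. Per cell they were 2.68 for Plpp3, 1.52 for Sphk1, 0.88 for S1pr2, 1.02 for Sgpl1 and -0.22 for Lpar6, while Plpp1 (0.35), Sphk2 (0.45) and S1pr1 (0.37) turned to higher. With library totals they were 1.95 for Plpp3, -0.38 for Plpp1, -0.27 for Sphk2, 0.16 for S1pr2 and 0.30 for Sgpl1. With a mean of at least 10 CPM they were 1.96 for Plpp3, -0.26 for Sphk2, 0.17 for S1pr2 and 0.31 for Sgpl1. Plpp1 turned to 0.68 in macrophage-like cells and to 0.66 in cells without a UMI of the epithelial or fibroblast lists, where S1pr2 was at 0.19 and 0.24. Leaving out 1 library gave 1.60 to 2.50 for Plpp3, -0.35 to -0.20 for Plpp1, 0.74 to 1.05 for Sphk1, -0.24 to -0.082 for Sphk2, -0.45 to -0.03 for S1pr1, 0.15 to 0.39 for S1pr2, 0.37 to 0.45 for Sgpl1 and -1.10 to -0.58 for Lpar6.

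Thinning to 5000 UMIs, which also left out shallower cells, turned the log2 ratio of shares to -0.20 and -0.29 for Sphk2, to -0.49 and -0.091 for S1pr1 and, in Experiment 2, to -0.036 for Plpp1. For Plpp3 it gave 1.89 and 1.94. For Lpar6 it made the efferocytic share relatively lower in both experiments. At Leiden resolution 1.0 the highest Plpp3 and Sphk1 levels over all clusters of a library stayed within their intervals, but in Experiment 2 these were of the fibroblast-like cluster (non-efferocytic) and, for Plpp3, of a cluster of few UMIs (efferocytic), so the Cdkn1c-led cluster there was not compared. Depth limits Sphk1 and Plpp1, with under 300 UMIs in each library.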
